A study of Homo sapiens with 12 samples.

Results

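The voltage-dependent anion channels, the adenine nucleotide carriers and 3 further mitochondrial membrane proteins were examined in MDA-MB-231 cells depleted of NONO or of PKM2. The genes were chosen by name, as VDAC1, VDAC2, VDAC3, SLC25A4, SLC25A5, SLC25A6, TSPO, TOMM20 and TOMM40, and all 9 were found among the 60558 gene identifiers that the deposited tables of both experiments shared. All 9 passed the filter on low counts in both experiments.

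MDA-MB-231 is an established human cell line of triple-negative breast cancer (TNBC). RNA was taken from NONO knockdown (NONO_KD) cells and from PKM2 knockdown (PKM2_KD) cells, and each knockdown had its own negative control (NC) group of wild-type genotype, so that the 4 groups of 3 libraries shared none. The siRNA methods of the study name a pair of siRNAs per target, but the reagent used for sequencing, the time after transfection and whether the 3 libraries of a group were separate cultures were not given, and P values therefore measure the spread between these libraries, which may be technical. Poly(A)-selected RNA was read as pairs of 150 bases, and the estimated read counts of a library summed to between 19861762 and 28455268.

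In the GENCODE 29 annotation on GRCh38, which served here only for positions and may differ from the annotation behind the tables, the members lie apart from each other. VDAC1 spans chr5:133971915-134005133 on the minus strand, VDAC2 chr10:75210154-75231448 on the plus strand and VDAC3 chr8:42391624-42405897 on the plus strand. SLC25A4 lies at chr4:185143241-185150382 and SLC25A5 at chrX:119468400-119471319, both on the plus strand, whereas SLC25A6 lies on the minus strand from 1386152 to 1392724 on X and at the same positions on Y, in the region that both sex chromosomes share. TSPO lies at chr22:43151514-43163242 and TOMM40 at chr19:44890569-44903689, both on the plus strand, and TOMM20 at chr1:235109336-235128936 on the minus strand.

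The VDAC proteins are barrel-shaped pores through which ATP, ADP, phosphate and metabolites cross the outer mitochondrial membrane, and hexokinase can dock on them. The adenine nucleotide translocators (ANT), encoded by SLC25A4, SLC25A5 and SLC25A6, exchange ADP for ATP across the inner membrane. TSPO is a cholesterol- and porphyrin-binding protein of the outer membrane that lies close to VDAC, and TOMM20 and TOMM40 are the receptor and the pore of the translocase (TOM) through which proteins made in the cytosol, VDAC and ANT included, enter mitochondria.

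The promoters of 4 members are shown because the channel genes VDAC1 and VDAC2 fell after both knockdowns whereas TOMM20 and SLC25A6 rose most after PKM2 knockdown. Each window is the RefSeq promoter (GRCh38.p14) from 250 bases before to 50 bases after a start site, written in the direction of transcription. Capitals mark the letters of 5 promoter motifs searched on both strands, namely the NRF1 motif spelled GCGCATGCG, the ETS motif spelled CCGGAAG, the GC box spelled GGGCGG, the E-box spelled CACGTG and the CCAAT box.
VDAC1 (chr5:134004926-134005225, minus strand): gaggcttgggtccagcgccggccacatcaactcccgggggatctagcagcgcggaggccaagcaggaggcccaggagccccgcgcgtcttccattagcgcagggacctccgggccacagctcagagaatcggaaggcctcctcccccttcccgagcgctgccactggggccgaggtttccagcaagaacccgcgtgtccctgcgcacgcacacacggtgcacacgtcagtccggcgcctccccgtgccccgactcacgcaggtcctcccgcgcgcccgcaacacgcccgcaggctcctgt
VDAC2 (chr10:75209920-75210219, plus strand): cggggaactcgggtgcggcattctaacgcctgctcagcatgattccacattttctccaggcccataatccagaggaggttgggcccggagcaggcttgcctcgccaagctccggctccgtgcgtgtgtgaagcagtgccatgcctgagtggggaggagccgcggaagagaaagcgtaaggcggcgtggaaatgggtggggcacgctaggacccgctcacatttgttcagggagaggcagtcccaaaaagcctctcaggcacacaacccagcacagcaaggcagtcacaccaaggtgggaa
TOMM20 (chr1:235128788-235129087, minus strand): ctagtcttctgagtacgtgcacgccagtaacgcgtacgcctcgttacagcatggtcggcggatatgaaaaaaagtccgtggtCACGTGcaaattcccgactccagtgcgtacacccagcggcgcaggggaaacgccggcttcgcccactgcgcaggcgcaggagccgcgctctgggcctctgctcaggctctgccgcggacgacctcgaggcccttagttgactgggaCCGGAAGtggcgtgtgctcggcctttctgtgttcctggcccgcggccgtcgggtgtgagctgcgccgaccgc
SLC25A6 (chrX:1392064-1392363, minus strand): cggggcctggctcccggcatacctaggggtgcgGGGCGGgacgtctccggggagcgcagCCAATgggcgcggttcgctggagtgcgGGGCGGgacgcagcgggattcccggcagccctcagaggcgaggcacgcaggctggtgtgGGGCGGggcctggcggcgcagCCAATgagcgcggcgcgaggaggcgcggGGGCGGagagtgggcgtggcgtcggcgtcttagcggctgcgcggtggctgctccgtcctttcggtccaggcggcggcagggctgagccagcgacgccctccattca

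The VDAC1 and VDAC2 windows shown held none of the 5 motifs. RefSeq promoters list 4 windows for VDAC1 and 2 for VDAC2, and those not shown are not described here. The TOMM20 window held 1 ETS motif and 1 E-box, and the SLC25A6 window held 4 GC boxes and 2 CCAAT boxes. Of all 35116 promoters of the same length, 10.3% held the ETS motif, 7.26% the E-box, 45.0% the GC box, 34.6% the CCAAT box and 1.92% the NRF1 motif. Of the other members with a window, SLC25A4, which also fell after both knockdowns, held 1 ETS motif and 1 CCAAT box. SLC25A5 and TSPO each held 6 GC boxes, and TOMM40 held 3 GC boxes and 5 CCAAT boxes. None of the windows of the 8 members held the NRF1 motif, and no match overlapped a match of a different motif. The TSPO GC boxes that start at -84 and -79, and those at -33 and -28, overlap by a base. GC content ran from 60.7% in VDAC2 to 77.0% in TSPO, against a median of 58.7% over all promoters, and the VDAC2 window also had the fewest CpG dinucleotides of the 8, 16 against 40 in SLC25A6 and a median of 14 over all promoters. The start sites behind the windows of VDAC1, SLC25A6 and TOMM40 lie 158, 611 and 685 bases from the GENCODE gene ends. The VDAC1 window thus lies partly inside the annotated gene. Those of SLC25A6 and TOMM40 lie wholly inside the annotated genes and hold no base upstream of them. A match is a description of the letters and not a binding site.

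The targeted genes checked the labels. NONO, a paraspeckle RNA-binding protein, was between 358 and 391 CPM (counts scaled to library size after TMM normalization) in the NC libraries and between 61.8 and 64.3 CPM after NONO knockdown. PKM, whose transcripts encode PKM1 and PKM2 and are not separated by counts per gene, was between 2211 and 2324 CPM in the NC libraries and between 218 and 234 CPM after PKM2 knockdown. Vimentin (VIM) lay between 3291 and 4466 TPM (reads scaled for transcript length and library size), and of the receptors that define TNBC ESR1 stayed at or below 0.12 TPM and PGR at or below 0.41 TPM, whereas ERBB2 was at 13.7 to 35.2 TPM. Library 1 of the NC group beside NONO knockdown and library 3 of PKM2 knockdown stood apart from their replicates, with a chi-square per degree of freedom of 8.29 to 12.3 against them over genes where the other pairs gave 2.33 to 4.17. Some of the results that rest on these libraries, but not all, are also given without them.

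Levels of the 9 genes were compared with each other in TPM, so their order rests on the lengths used for TPM. TSPO and VDAC3 have similar listed gene lengths, 955 and 949 bases. In the NC libraries for NONO TSPO had fewer counts (1640, 1838 and 1670 against 2283, 2026 and 2176) but a higher TPM. Among NC libraries for NONO the order by mean level was SLC25A5 at 380 TPM, SLC25A6 at 290 TPM, VDAC1 at 287 TPM, VDAC2 at 241 TPM, TSPO at 212 TPM, TOMM40 at 209 TPM, VDAC3 at 132 TPM, TOMM20 at 124 TPM and SLC25A4 at 25.1 TPM. The ranges over libraries overlapped between SLC25A6 and VDAC1, between VDAC2 and TOMM40, between TSPO and TOMM40 and between VDAC3 and TOMM20. Within each of these pairs there was no order beyond the spread. Among NC libraries for PKM2 SLC25A5 again led at 378 TPM and SLC25A4 again came last at 36.5 TPM. Between them were VDAC1 at 302 TPM, VDAC2 at 296 TPM and SLC25A6 at 288 TPM, each of which overlapped both of the others.

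SLC25A5, the ANT isoform known for high levels in proliferating cells, remained the highest member in all 4 groups, and SLC25A4, the isoform typical of heart and skeletal muscle, the lowest. VDAC1 went from the 3rd to the 6th place by mean TPM after NONO knockdown, where it overlapped TOMM20 and VDAC3. After PKM2 knockdown it went from the 2nd to the 8th place and lay below VDAC3 in every library. TOMM20 went from the 8th to the 3rd place after PKM2 knockdown, overlapping TSPO. SLC25A6 rose to 368 TPM and overlapped SLC25A5 at 377 TPM in that group.

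**Figure D1:**
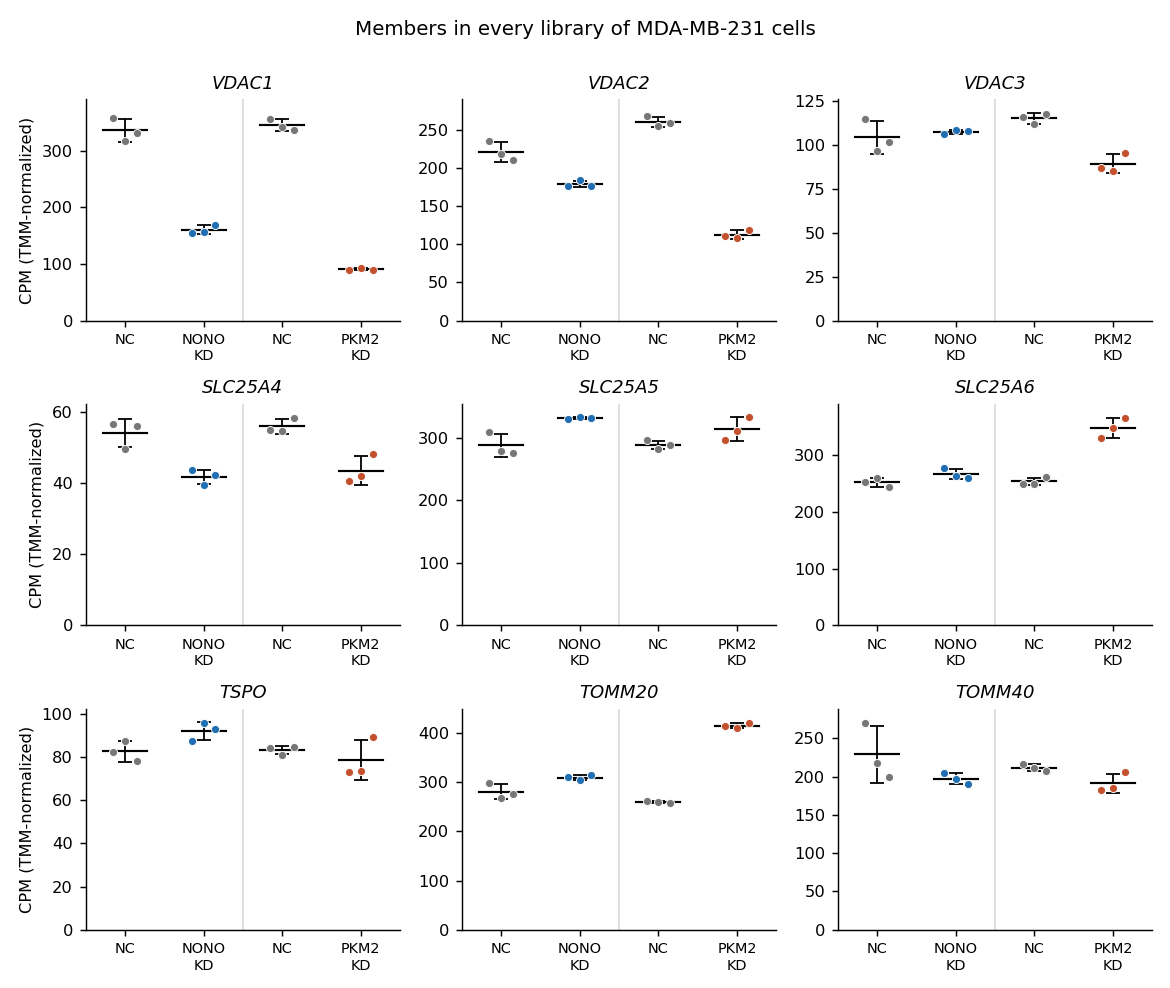
Expression of the 9 members in every library, in TMM-normalized CPM (y axis from 0), by group (x axis). Points are libraries, horizontal lines are group means and error bars are SD (n = 3); grey points are NC libraries, blue points NONO knockdown and red points PKM2 knockdown. The 3 PKM2 knockdown libraries of VDAC1 lie between 89.8 and 92.7 CPM, below its NONO knockdown libraries at 154 to 169 CPM, and NC library 1 beside NONO knockdown stands above its replicates in TOMM40 at 271 CPM.

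After NONO knockdown, 5 of the 9 members passed edgeR's quasi-likelihood test at a Benjamini-Hochberg adjusted P below 0.05, against 33.4% of the 14832 genes tested. The lowered members were VDAC1, VDAC2 and SLC25A4 (17.2% of all genes were lowered) and the raised members were SLC25A5 and TOMM20 (16.2% of all genes were raised). By the study's own cutoff for differentially expressed genes (DEGs), which asks for more than a 2-fold change and an unadjusted P under 0.05, VDAC1 was the 1 DEG among the 9, where 2.95% of all genes were DEGs and 2.16% were lowered DEGs. The NC and knockdown libraries did not overlap for 6 members, against 46.1% of all genes. The median log2 fold change of the members was 0.04, beside -0.01 for all genes, and the median of its absolute value was 0.20, beside 0.19. Without the first NC library, 8 members passed the test (3 lowered and 5 raised), VDAC3, SLC25A6 and TSPO being added at log2 fold changes of 0.13, 0.10 and 0.16, and the share of all genes that passed was 41.2% instead of 33.4%.

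After PKM2 knockdown, 7 of the 9 members passed the test, against 68.4% of the 15524 genes tested. VDAC1, VDAC2, VDAC3, SLC25A4 and TOMM40 were lowered (34.7% of all genes) and SLC25A6 and TOMM20 were raised (33.6% of all genes). VDAC1 and VDAC2 were DEGs, where 20.8% of all genes were DEGs and 13.8% were lowered DEGs. The groups did not overlap for 8 members, against 71.9% of all genes. The members' median log2 fold change was -0.15, beside -0.01 for all genes, and the median of its absolute value was 0.37, beside 0.47. A count of 7 of 9 is close to this background, so the members as a group did not stand apart by how many changed.

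**Figure D2:**
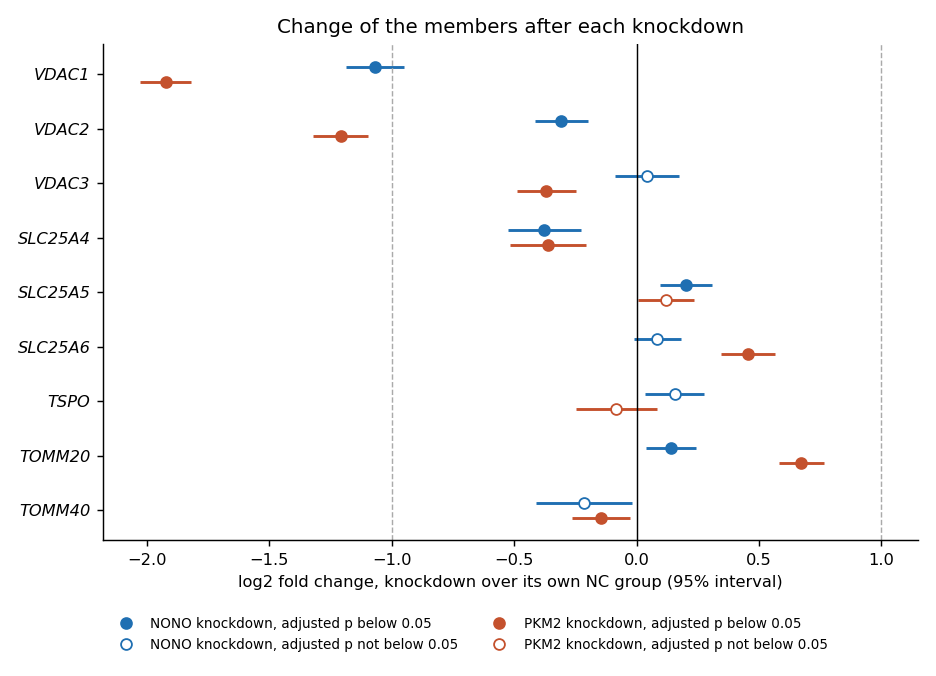
log2 fold changes of the 9 members after NONO knockdown (blue) and PKM2 knockdown (red), each against its own NC group, with 95% intervals from edgeR (x axis); filled points passed an adjusted P below 0.05 and dashed lines mark a 2-fold change. VDAC1 lies farthest to the left in both knockdowns, at -1.07 and -1.92, and TOMM20 farthest to the right after PKM2 knockdown, at 0.67.

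VDAC1, the most abundant VDAC isoform in these cells by mean TPM in both NC groups, fell in both experiments. It was at 358, 318 and 332 CPM in the NC libraries and at 154, 157 and 169 CPM after NONO knockdown, and in the PKM2 experiment at 356, 342 and 336 CPM in NC libraries and at 89.8, 92.7 and 90.1 CPM after knockdown. Every knockdown library lay below every NC library, and in bulk RNA fewer cells with the transcript and less of it per cell cannot be told apart. VDAC1 fell by 52.3% after NONO knockdown (log2 fold change -1.07 ± 0.05 SE, 95% interval -1.19 to -0.95, adjusted P = 2.34e-07 from edgeR). It fell by 73.6% after PKM2 knockdown (log2 fold change -1.92 ± 0.05 SE, 95% interval -2.03 to -1.82, adjusted P = 8.21e-11 from edgeR). By P value VDAC1 ranked 32nd of the 14832 genes tested after NONO knockdown and 23rd of 15524 after PKM2 knockdown. The fall after PKM2 knockdown was larger, by -0.87 on the log2 scale in a test of the difference (edgeR interaction, 95% interval -1.03 to -0.71, adjusted P = 5.02e-08).

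VDAC2, the isoform known to hold the apoptosis effector BAK at the outer membrane, fell far less after NONO knockdown than after PKM2 knockdown. Its NC libraries were at 235, 218 and 210 CPM and its NONO knockdown libraries at 176, 184 and 176 CPM, where it fell by 19.2% (log2 fold change -0.31 ± 0.05 SE, adjusted P = 6.81e-04 from edgeR). In the PKM2 experiment it went from 268, 255 and 259 CPM to 111, 108 and 119 CPM, where it fell by 56.7% (log2 fold change -1.21 ± 0.05 SE, adjusted P = 2.89e-09 from edgeR). The groups did not overlap in either experiment, and the changes differed by -0.91 on the log2 scale (95% interval -1.07 to -0.76, adjusted P = 2.00e-08, edgeR interaction).

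VDAC3, the least abundant isoform of the family in the NC groups, did not pass the test after NONO knockdown. It was at 115, 96.6 and 102 CPM in the NC libraries and at 106, 108 and 108 CPM after NONO knockdown, where the groups overlapped (log2 fold change 0.04, 95% interval -0.09 to 0.17, adjusted P = 0.622 from edgeR). After PKM2 knockdown it fell from 116, 112 and 118 CPM to 86.9, 85.2 and 95.3 CPM, and thus fell by 22.5% (log2 fold change -0.37 ± 0.06 SE, adjusted P = 9.32e-05 from edgeR). The changes differed by -0.42 on the log2 scale (adjusted P = 5.29e-04, edgeR interaction). Taking out the trend of all genes with transcript length and GC content moved the fall after PKM2 knockdown from -0.37 to -0.59.

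The 3 VDAC genes thus fell in the order VDAC1, VDAC2, VDAC3 after PKM2 knockdown, with 95% intervals that did not overlap. Their summed level was 705, 634 and 642 TPM in NC cells and 445, 456 and 459 TPM after NONO knockdown, and 751, 745 and 723 TPM against 301, 294 and 294 TPM in the PKM2 experiment. The VDAC1 share of that sum went from 43.5% ± 0.80 to 29.4% ± 1.34 after NONO knockdown and from 40.8% ± 0.37 to 24.8% ± 1.21 after PKM2 knockdown (SD, n = 3). The VDAC3 share went the other way, from 19.95% ± 0.46 to 28.3% ± 0.25 and from 19.2% ± 0.74 to 35.6% ± 0.78, so that after PKM2 knockdown it exceeded VDAC1 and came behind VDAC2 at 39.6% ± 0.44. With shares taken from counts divided by the tables' gene length instead of TPM, VDAC3 was the largest after PKM2 knockdown, at 42.6% ± 0.78 against 34.9% ± 0.46 for VDAC2. The shares are descriptions, since 3 against 3 libraries cannot go below an exact permutation P of 0.10.

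**Figure D3:**
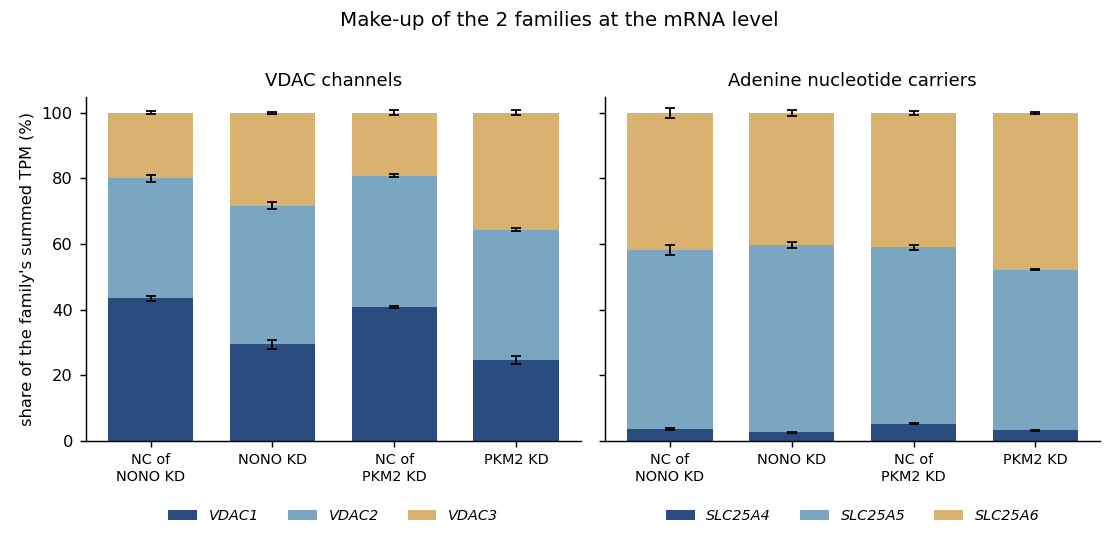
Share of each gene in the summed TPM of its family (y axis, %), for the VDAC channels (left) and the adenine nucleotide carriers (right) in the 4 groups (x axis); bars are means and error bars the SD of each share, drawn at the top of its segment (n = 3). VDAC1 shrank from 43.5% to 29.4% after NONO knockdown and from 40.8% to 24.8% after PKM2 knockdown. SLC25A5 went from 54.6% to 57.1% of the carriers after NONO knockdown and from 53.8% to 49.0% after PKM2 knockdown.

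The adenine nucleotide carriers showed no such joint fall. Their summed level was 718, 693 and 675 TPM in the NC libraries and 741, 727 and 729 TPM after NONO knockdown, and 697, 701 and 708 TPM against 752, 780 and 775 TPM in the PKM2 experiment. All knockdown libraries were above all NC libraries of their own experiment in this sum. Against the VDAC sum, the carrier sum was of similar size in NC cells, whereas in PKM2 knockdown libraries it was at 752 TPM or more where the VDAC sum was at 301 TPM or less.

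SLC25A4 (ANT1) fell in both experiments. It went from 56.6, 49.5 and 56.1 CPM to 43.5, 39.4 and 42.1 CPM after NONO knockdown, where it fell by 23.0% (log2 fold change -0.38 ± 0.07 SE, adjusted P = 0.00142 from edgeR), and from 54.8, 54.5 and 58.2 CPM to 40.5, 41.8 and 48.0 CPM after PKM2 knockdown, where it fell by 22.2% (log2 fold change -0.36 ± 0.07 SE, adjusted P = 6.97e-04 from edgeR). The groups did not overlap in either experiment. The difference between the 2 changes was 0.00 on the log2 scale with a 95% interval of -0.21 to 0.22. In TPM the NC level of this gene was 25.1 ± 1.73 beside NONO knockdown but 36.5 ± 1.35 beside PKM2 knockdown (SD, n = 3), while in CPM it was 54.1 ± 3.94 and 55.8 ± 2.09. Its share of the carriers is therefore given by counts per length, from 3.01% ± 0.23 to 2.11% ± 0.10 and from 3.09% ± 0.08 to 2.00% ± 0.08.

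SLC25A5 (ANT2) rose after NONO knockdown by 15.1%. It was at 309, 280 and 276 CPM in the NC libraries and at 330, 334 and 332 CPM after knockdown, with no overlap (log2 fold change 0.20 ± 0.05 SE, adjusted P = 0.00730 from edgeR). In TPM with limma the value was 0.14 and did not pass the test (adjusted P = 0.0686). After PKM2 knockdown it was at 296, 283 and 289 CPM in NC libraries and at 297, 312 and 334 CPM after knockdown, which did not pass the test (log2 fold change 0.12, 95% interval 0.01 to 0.23, adjusted P = 0.0570 from edgeR). The changes differed by -0.10 with a 95% interval of -0.26 to 0.06. A non-coding gene, SLC25A5-AS1, shares 227 exon bases with SLC25A5 on the opposite strand, and the use of strand in counting is not stated, so reads there cannot be told apart.

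SLC25A6 (ANT3) rose after PKM2 knockdown. It went from 250, 250.2 and 262 CPM to 330.4, 348 and 366 CPM, by 37.1% (log2 fold change 0.46 ± 0.05 SE, adjusted P = 7.07e-06 from edgeR), and its share of the carriers went from 41.0% ± 0.67 to 47.8% ± 0.34. After NONO knockdown it was at 253, 260.3 and 244 CPM in NC libraries and at 278, 264 and 261 CPM after knockdown, values that did not overlap and did not pass the test (log2 fold change 0.09, adjusted P = 0.162 from edgeR). The changes differed by 0.36 on the log2 scale (adjusted P = 2.94e-04, edgeR interaction). With the trend of length and GC content taken out, the rise after PKM2 knockdown was 0.75.

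TSPO did not pass the test in either experiment. It was at 82.3, 87.6 and 78.1 CPM in NC libraries and at 87.5, 95.6 and 93.1 CPM after NONO knockdown (log2 fold change 0.16, 95% interval 0.03 to 0.28, adjusted P = 0.0508 from edgeR), and at 84.2, 81.0 and 84.5 CPM against 72.9, 73.5 and 89.4 CPM after PKM2 knockdown (log2 fold change -0.08, 95% interval -0.25 to 0.08, adjusted P = 0.351 from edgeR). The groups overlapped in both. The third PKM2 knockdown library was the highest of its experiment, and without it TSPO fell by 0.18 on the log2 scale (edgeR adjusted P = 0.00308). The difference between the changes was -0.25 with an adjusted P of 0.0451 (edgeR interaction) and passed in 9 of the 20 settings tried.

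TOMM20, the receptor that binds presequences of imported proteins, rose in both experiments, and far more after PKM2 knockdown. It went from 263, 261 and 258 CPM to 414, 411 and 421 CPM after PKM2 knockdown, by 59.4% (log2 fold change 0.67 ± 0.04 SE, adjusted P = 5.58e-08 from edgeR). After NONO knockdown it went from 298, 268 and 277 CPM to 311, 304 and 314 CPM, by 10.3% (log2 fold change 0.14 ± 0.05 SE, adjusted P = 0.0351 from edgeR), a call made in 5 of the 14 settings tried. Without the first NC library the log2 fold change was 0.195 (adjusted P = 8.04e-05 from edgeR). The groups did not overlap in either experiment, and the changes differed by 0.52 on the log2 scale (95% interval 0.38 to 0.65, adjusted P = 3.03e-06, edgeR interaction).

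TOMM40, the channel of the same translocase, had no such rise. Its NC libraries were at 271, 217 and 200 CPM and its NONO knockdown libraries at 204, 198 and 191 CPM, which overlapped (log2 fold change -0.21 ± 0.09 SE, adjusted P = 0.0880 from edgeR). Without the first NC library the value was -0.07. After PKM2 knockdown TOMM40 fell from 217, 212 and 207 CPM to 183, 186 and 206 CPM, that is, fell by 9.62% (log2 fold change -0.15 ± 0.05 SE, adjusted P = 0.0306 from edgeR), a call made in 8 of the 14 settings, and with the length and GC trend taken out the value turned to 0.07. The changes differed by 0.06 with a 95% interval of -0.19 to 0.30.

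The change differed between the knockdowns for 6 of the 9 members, against 53.1% of the 15995 genes tested. The log2 change was lower in PKM2 knockdown for VDAC1, VDAC2, VDAC3 and TSPO (27.4% of all genes) and higher for SLC25A6 and TOMM20 (25.7% of all genes). By that DEG cutoff no member differed, where 18.1% of all genes did. The median difference over members was -0.10 and that over all genes -0.02.

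Over the 12 libraries, each set relative to the mean of its own NC group, VDAC1 and VDAC2 varied together (Pearson r = 0.95) and against TOMM20 (r = -0.92 and -0.98). SLC25A6 varied with TOMM20 (r = 0.96). Of the correlations of VDAC1 with the other members, that with TSPO was the closest to 0 (r = 0.14). The libraries share their group, so these correlations describe mainly the group means.

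Among 9845 genes with a mean of at least 10 CPM, the genes whose log2 CPM followed a member most closely over the same 12 libraries were named. For VDAC1 these included RAB15 and ENDOD1 (r = 0.996 and 0.993), and they were for VDAC2 SLC17A9, OBSL1 and RCN2 (r between 0.997 and 0.998) and for VDAC3 MOCS2, BZW2 and MRPS21 (r between 0.982 and 0.985). AP2M1, SLC25A17 and CYP2R1 were most like SLC25A4, and HMGN2, TPM3 and NUP93 most like SLC25A5, whereas SPG21 and FSCN1 were among those most like SLC25A6. RPL10A, ATP5PO and MICOS13 were most like TSPO, ABCF1, BAIAP2 and the mitochondrial import chaperone HSPA9 most like TOMM20 (r = 0.997 for HSPA9), and GPS2, HM13 and PDCD2 most like TOMM40. The likeness is over all 12 libraries and says nothing of shared control.

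Processed pseudogenes can take reads from these genes. The tables held 42 pseudogenes of 7 of the members, and their summed counts were at most 4.14% of the parent's counts in any library, which was VDAC1 in the first PKM2 knockdown library. VDAC1P8, VDAC1P2 and TOMM40P4 held the most. The pseudogenes of VDAC1 summed to between 126 and 155 counts in NC libraries and to between 55.0 and 115 counts in knockdown libraries, beside 6661 to 10440 and 2158 to 3328 counts for VDAC1 itself.

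The study's methods list siRNAs, and their seeds were searched in the 3′ UTRs of the members because an siRNA can lower transcripts that match its seed. The sites of VDAC1, VDAC2 and SLC25A4 are shown as the members that fell in both experiments, with the 7 bases that pair with the seed (antisense positions 2 to 8) in capitals and up to 11 bases on each side (GENCODE 29, GRCh38, transcript strand).
VDAC1, NONO siRNA-1 (chr5:133972582-133972610, minus strand): gaggtacagaaGAAACCTatttccaaaaa
VDAC1, NONO siRNA-1 (chr5:133971915-133971934, minus strand): aataaaatattGAAACCTca
VDAC1, PKM2 siRNA-1 (chr5:133972032-133972060, minus strand): tctgttgtattCTCACCActcaatttgtt
VDAC2, NONO siRNA-1 (chr10:75230990-75231018, plus strand): tccagctgaaaGAAACCTttgggaatgga
SLC25A4, NONO siRNA-2 (chr4:185147384-185147412, plus strand): ccagatattatATTGAGAatgtattatat
SLC25A4, PKM2 siRNA-1 (chr4:185149502-185149530, plus strand): cagctacttaaCTCACCAtgaattcctag
SLC25A4, PKM2 siRNA-2 (chr4:185149006-185149034, plus strand): atcacatctgaCCTCACCtggtagatatc
SLC25A4, PKM2 siRNA-2 (chr4:185149483-185149511, plus strand): ctgagctagttCCTCACCgcagctactta
SLC25A4, PKM2 siRNA-2 (chr4:185149802-185149830, plus strand): ctcccctaaagCCTCACCtgttggcattt

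VDAC1 thus held 2 matches to NONO siRNA-1 and 1 to PKM2 siRNA-1 in a 3′ UTR of 856 bases, and VDAC2 held 1 to NONO siRNA-1 in 459 bases. SLC25A4, with 3411 bases, held 1 match to NONO siRNA-2, 1 to PKM2 siRNA-1 and 3 to PKM2 siRNA-2. TOMM20, which rose, held 1 match to NONO siRNA-2, and TOMM40 held 1 to each of NONO siRNA-2, PKM2 siRNA-1 and PKM2 siRNA-2. The TOMM40 matches to the PKM2 siRNAs start at positions 1801 and 1800 and overlap in the same stretch. The TOMM40 3′ UTR searched, of 2332 bases, is longer than the tables' gene length of 1709. VDAC3, SLC25A5, SLC25A6 and TSPO held none, and VDAC2, whose larger fall was after PKM2 knockdown, held none for either PKM2 siRNA. Of the longest 3′ UTRs of 18925 genes, 12.5% held a match to NONO siRNA-1, 11.8% to NONO siRNA-2, 11.8% to PKM2 siRNA-1 and 14.9% to PKM2 siRNA-2. Their median length was 1101 bases, and these shares are not adjusted for length. The methods also list shRNAs against both targets, whose seeds were not searched. Which siRNA or shRNA was used for sequencing is not stated, and the part of these matches in the changes was not tested.

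Genes that act beside the members were counted from 7 lists of 98 genes, of which 88 were tested. After NONO knockdown 24 were lowered, 18 were raised and 46 did not pass the test, with a median log2 fold change of 0.00 beside -0.01 for all genes, and none was a DEG. After PKM2 knockdown 29 were lowered, 38 were raised and 21 did not pass, with a median of 0.12 beside -0.01, and 7 were DEGs. Of all genes, 33.4% passed the test after NONO knockdown (17.2% lowered and 16.2% raised) and 68.4% after PKM2 knockdown (34.7% lowered and 33.6% raised). By the DEG cutoff, 2.95% and 20.8% of all genes were DEGs.

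Among 9 other subunits of the TOM and SAM complexes, which import and insert outer-membrane proteins, NONO knockdown lowered 2 and raised 1, and PKM2 knockdown lowered 1 and raised 5. TOMM22, the receptor that joins TOMM20 to the channel, rose in both, from 34.9 to 61.7 CPM (log2 fold change 0.82) and from 30.7 to 42.3 CPM (0.46), although in TPM with limma the latter rise was 0.22 and did not pass (adjusted P = 0.0580). TOMM70, the receptor used by carrier proteins such as the ANTs, fell after PKM2 knockdown from 157 to 113 CPM (log2 fold change -0.47) and was at 0.03 after NONO knockdown. MTX2 of the SAM complex fell after NONO knockdown with a log2 fold change of -0.57 and rose after PKM2 knockdown by 0.15. Of the 4 paralogs of the members only TOMM40L was tested, and it fell in both experiments (log2 fold changes -0.43 and -0.79).

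Of the 20 genes of the TIM machinery, which carries proteins to and across the inner membrane, NONO knockdown lowered 3 and raised 3, and PKM2 knockdown lowered 4 and raised 12 (median log2 fold change 0.29). The small chaperones TIMM10 and TIMM13, which escort hydrophobic proteins through the space between the membranes, rose after PKM2 knockdown with log2 fold changes of 1.00 and 0.99, and TIMM13 rose after NONO knockdown by 0.41. The receptor TIMM50 and the presequence protease subunit PMPCA fell after PKM2 knockdown, at -0.47 and -0.39, and PMPCA was at -0.59 with limma on TPM. GRPEL1, a cofactor of the import chaperone, fell after NONO knockdown (-0.58) and rose after PKM2 knockdown (0.51).

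The 27 other mitochondrial carriers went both ways, 8 down and 7 up for NONO knockdown and 12 down and 9 up for PKM2 knockdown. The ATP-Mg/phosphate carriers SLC25A23 and SLC25A25 went opposite ways after PKM2 knockdown, from 72.1 to 12.5 CPM (log2 fold change -2.52) and from 28.4 to 89.3 CPM (1.66). The dicarboxylate carrier SLC25A10 fell (-1.68) and the glutamate carrier SLC25A22 rose (1.17) in the same cells, and after NONO knockdown SLC25A23 fell (-0.42) and SLC25A10 rose (0.21). SLC25A44 fell after NONO knockdown (-0.59).

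Of 9 tested kinases and pore partners of VDAC and ANT, NONO knockdown lowered 3 and raised 2, and PKM2 knockdown lowered 3 and raised 3. HK2, a hexokinase that docks on VDAC, was at 196 ± 5.90 CPM in NC and fell to 145 ± 1.13 CPM with NONO knockdown (log2 fold change -0.44, adjusted P = 1.97e-05 from edgeR) and from 177 ± 3.19 to 84.3 ± 5.57 CPM after PKM2 knockdown (-1.07, adjusted P = 1.20e-08; SD, n = 3). HK1 fell in both as well (-0.23 and -0.80). PPIF, which encodes the cyclophilin of the permeability transition pore, fell after NONO knockdown (-0.36) and rose after PKM2 knockdown (0.97), and in TPM with limma its fall was -0.74. BCL2L1, an inhibitor of apoptosis that binds VDAC, rose in both (0.33 and 0.87).

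Around TSPO, 8 of 10 genes of its partners and of steroid synthesis were tested, of which NONO knockdown lowered 2 and PKM2 knockdown lowered 4 and raised 3. DBI, the endogenous ligand of TSPO, went from 123 ± 9.07 CPM down to 30.1 ± 3.05 CPM with PKM2 knockdown (SD, n = 3, log2 fold change -2.03, adjusted P = 1.52e-09 from edgeR). FDX1, the ferredoxin of steroid synthesis, fell after NONO knockdown (-0.64) and rose after PKM2 knockdown (0.83).

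Of 14 genes of mitochondrial biogenesis and mass, NONO knockdown lowered 5 and raised 5, and PKM2 knockdown lowered 4 and raised 6. The coactivator PPARGC1A went from 9.79 down to 5.94 CPM with NONO knockdown (-0.72) and rose from 8.00 to 17.2 CPM after PKM2 knockdown (1.10). In TPM with limma the value of PPARGC1A after NONO knockdown was -0.34 and did not pass the test (adjusted P = 0.141). TFAM, which packages mitochondrial DNA, fell after NONO knockdown (-0.47) and rose after PKM2 knockdown (0.38), and GABPA, a subunit of the factor that binds the ETS motif of many such genes, rose in both (0.45 and 0.62). Citrate synthase (CS), often used as a measure of mitochondrial mass, and the inner-membrane prohibitin PHB2 fell after PKM2 knockdown (-0.73 and -0.90). COX4I1, a subunit of cytochrome c oxidase, and the other prohibitin PHB rose in the same cells (0.24 and 0.20), so that the genes used for mitochondrial mass went both ways, and CS rose after NONO knockdown (0.18); these values were chosen after they were seen.

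**Figure D4:**
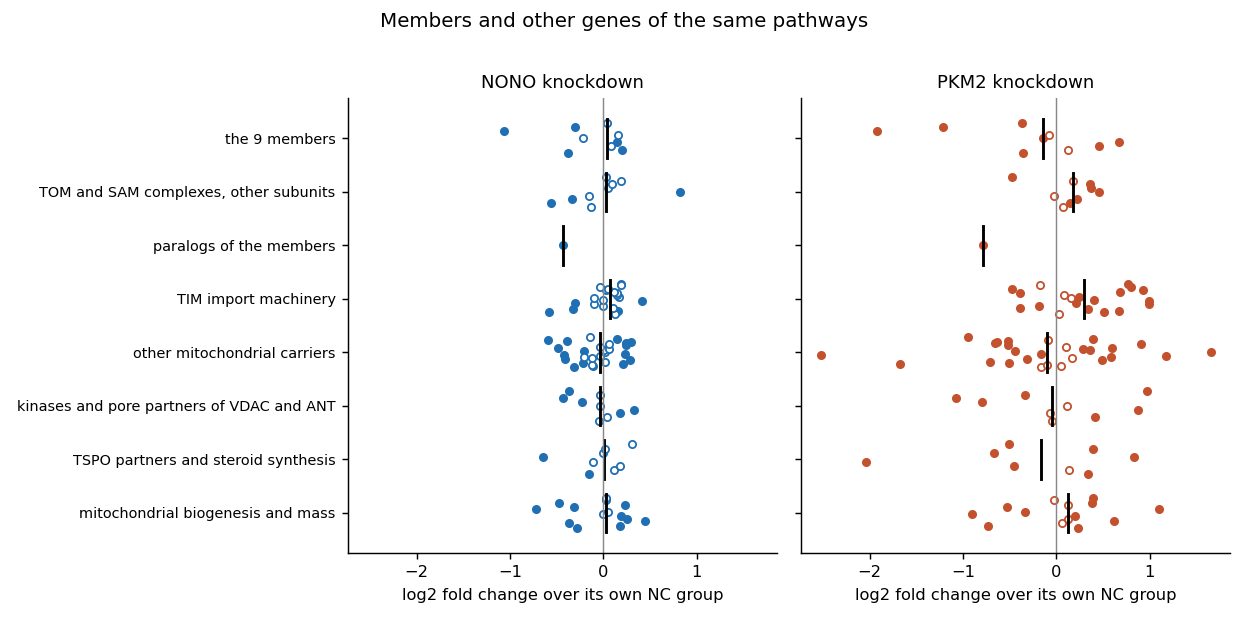
log2 fold changes (x axis) of the 9 members and of the 88 tested genes of 7 other lists (rows) after NONO knockdown (left) and PKM2 knockdown (right); filled points passed an adjusted P below 0.05 and black bars are list medians. After PKM2 knockdown the median of the TIM machinery lies at 0.29 and that of the members at -0.15, and the carriers spread from -2.52 to 1.66.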

How the data were processed

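The sample titles gave group and replicate, and every count and TPM column was assigned to a library by the deposited table that held it, since both tables use the same column names. The authors deposited estimated counts per gene, partly not whole numbers, and TPM values per gene and library. The submitters' processing notes name fastp, HISAT2, StringTie, RSEM, DESeq2, edgeR, limma and the build hg19 without roles or versions. The handling of strand and of reads that match several genes is not given in the sources used here. Deposited mean TPM, fold change and P value columns hold the authors' own comparisons and were not used, and 0 columns with values per library were left out.

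Counts were rounded and tested with edgeR 4.0.16 (R 4.3.3): TMM normalization, filterByExpr at its defaults and the quasi-likelihood test without a replicate block, with Benjamini-Hochberg adjustment over all genes tested in an experiment. The standard error was derived from the F statistic. Differences between the knockdowns were an interaction in a fit of all 12 libraries. The procedures were tested on simulated data. Precision rests on 3 libraries per group and on 19861762 to 28455268 counts per library. Same-numbered NC and knockdown libraries did not deviate together (r from -0.07 to 0.04 over genes), so the numbers were not taken to pair libraries.

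Locations, 3′ UTRs and seed matches came from GENCODE 29 on GRCh38 and promoters from RefSeq, both of another build than hg19, and served for description only. For genes with several promoter windows, the window nearest the GENCODE 5′ end was used, and VDAC3 is not shown. Gene lists and the rule for named genes (members, targets, the 3 most similar genes per member, and the 2 largest called rises and falls per list and experiment) were set with earlier results of these data known, as were the members. Some genes that this rule selects are not reported here. Alternatives were DESeq2 1.42.0, RLE factors, no count filter, a replicate block, limma 3.58.1 on log2(TPM + 1) where the mean reached 1 TPM, limma with a pseudocount of 0.1, limma on all genes above 0, the study's DEG cutoff, each library left out, and removal of the median change in 20 bins of transcript length and of GC content, which was known for at least 98.8% of genes.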

Additional observations from a re-analysis of the deposited data

Results flagged for a closer look

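The test of the difference between the knockdowns (edgeR interaction, PKM2 change minus NONO change on the log2 scale) passed for 6 of the 9 members, where 53.1% of all genes passed. VDAC1 differed by -0.87, VDAC2 by -0.91, VDAC3 by -0.42 and TSPO by -0.25, and SLC25A6 differed by 0.36 and TOMM20 by 0.52. The 2 experiments share no library, so experiment and target cannot be told apart beyond the comparison of each with its own NC group. NC library 1 of NONO and library 3 of PKM2 knockdown stood apart from their replicates. Without the former the difference was -0.91 for VDAC1, -0.95 for VDAC2, -0.49 for VDAC3, 0.37 for SLC25A6 and 0.48 for TOMM20, all still past the threshold, and -0.24 for TSPO, no longer past it (adjusted P = 0.0748 from edgeR). Without the latter all 6 were past the threshold, TSPO at -0.35.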

How the results depend on the processing

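VDAC1, VDAC2 and SLC25A4 were lowered in both experiments in all 14 settings, and VDAC3, SLC25A6 and TOMM20 kept their direction and call after PKM2 knockdown in all 14. Of 432 recomputed member changes, 352 were counted as kept, 29 lost and 19 gained the call, 8 moved and 24 turned sign. Kept means the same direction and side of the threshold. Values with the length and GC trend taken out have no P value. Unless they turned sign, they were counted as kept within a spread derived from the SE, and otherwise as moved. None of the 24 passed the test with the other sign, which the trend values among them could not do. Of the 24, 23 were changes that had not passed the test in edgeR. The other one was TOMM40 after PKM2 knockdown, at 0.073 with the length and GC trend taken out. Among the 23, limma gave -0.0372 to -0.0375 for VDAC3 after NONO knockdown, -0.0057 for SLC25A5 after PKM2 knockdown, and for the difference -0.1339 to -0.1346 for SLC25A4 and -0.0249 to -0.0251 for TOMM40. The SLC25A4 difference was also -0.0097 with no count filter and -0.0021 with the replicate block, and lay between -0.0773 and 0.0789 with a library left out, below 0 in 6 such settings. With a library left out VDAC3 after NONO knockdown lay between -0.0024 (without NC library 2) and 0.1253, and the TOMM40 difference between -0.0717 (without NC library 1 of NONO) and 0.1633. TSPO after PKM2 knockdown was at 0.0048 with the trend taken out. The number of members that passed after NONO knockdown was 5, but 3 in each of the limma fits on TPM, where none rose and the share of all genes that passed was 6.21% to 19.3% instead of 33.4%, and 1 by the DEG cutoff. In limma SLC25A4 after PKM2 knockdown was as low as -0.56, against -0.36 in edgeR. With limma the raised share of all called genes went from 48.4% to 34.4% after NONO knockdown, and with a pseudocount of 0.1 the all-gene median after PKM2 knockdown lay at -0.10. The cutoff of 2-fold left 2 members after PKM2 knockdown and 0 in the difference. In limma BAX and SLC25A40, raised in edgeR after NONO knockdown, had log2 values of -0.0400 to -0.0402 and of -0.0269 to -0.0291. The cause of these shifts was not tested.

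Leaving out each library in turn gave 4 to 8 members after NONO knockdown (8 without NC library 1), 6 to 8 after PKM2 knockdown and 5 to 6 for the difference. The genes of the other lists called after NONO knockdown then numbered 26 to 52, against 42 with all libraries, the lowest without knockdown library 2 and 27 without knockdown library 3. With a replicate block, 5 members passed after NONO knockdown, 7 after PKM2 knockdown and 6 in the difference. TOMM20 lost its call after NONO knockdown and TOMM40 gained one (adjusted P = 0.0537 and 0.0484 from edgeR), but the numbers do not pair the libraries. With 3 libraries per group, changes of the size of TSPO after NONO knockdown lie at the limit of what passed.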
